A study of Mus musculus with 8 samples.

Results

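The regions described here are stretches of open chromatin that the authors' peak caller found in both ATAC-seq libraries labelled Hira KO and in neither library labelled WT. They were chosen by pooling the 4 peak lists, merging intervals that shared at least 1 base, leaving out the mitochondrial genome, and keeping the merged regions with that pattern of calls. Of 112479 merged regions, 6341 (5.64%) met the rule. They are called KO-pair regions below. Since the rule reads the ATAC-seq calls, the ATAC-seq values of these regions are a description with no test, and the only tests are on RNA, which the rule did not use.

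The cells were LSK cells of bone marrow from C57BL/6 mice, sorted without lineage markers but with Sca1 and Kit, among which are haematopoietic stem cells (HSC) and multipotent progenitors. One group is labelled WT and the other Hira conditional KO. The labels give neither the Cre driver nor the age of the mice, nor which libraries came from which mouse. Each assay, ATAC-seq and RNA-seq, had 2 libraries per group.

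ATAC-seq marks open chromatin by where a transposase can insert, and a caller such as MACS2 reports intervals where fragments pile up over the local background. Fold enrichment is the height of that pile over the background. Open sites away from gene starts are often enhancers, which transcription factors hold open in particular cell types. In blood, PU.1 (encoded by Spi1) opens sites of myeloid and lymphoid genes, GATA1 and KLF1 do so at erythroid genes, and interferon regulatory factors bind elements called ISRE. HIRA is a histone chaperone that places the histone variant H3.3 into chromatin outside DNA replication, at active promoters and enhancers among other sites.

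The labels could be checked only in part. The labelled WT libraries had 16.5 and 17.2 CPM of Hira RNA (CPM, counts per M counts of the TMM-adjusted library), the labelled Hira KO libraries 24.4 and 23.3 CPM, and the groups did not overlap. The log2 fold change was 0.50 (SE 0.19, n = 2 and 2, edgeR adjusted p 0.18), so Hira did not pass the test and its level ran against the labels. All 8 deposited file names also carry the opposite genotype. Every direction below therefore follows the labels, and no KO-pair region lay within 10 kb of Hira. The RNA libraries held 16.6 to 19.8 M counts. The peak lists held 79565 and 63422 intervals (labelled WT) and 92839 and 73715 (labelled Hira KO), with no read totals, so the ATAC-seq depth is unknown. An interval at the Xist start was called in replicate 1 of each group and in neither replicate 2, while every list held between 63 and 87 intervals on chromosome Y. Xist RNA was 8958 and 80.4 CPM (labelled WT) against 12060 and 10280 CPM (labelled Hira KO), with labelled WT replicate 2 far below the other 3 libraries.

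Most KO-pair regions lie away from gene starts, and the sequences at hand cover promoters only. A set of 237 RefSeq promoter windows (250 bases before to 50 after a start, GRCm38.p6) overlapped a KO-pair region. The 250 bases before the start are shown for 7 of them. Tnip3, Tbxas1, Cd96 and Ptpn21 are the genes of this kind whose RNA passed the test. Bcl2a1d, Il7r and Cybb are examples from apoptosis, lymphoid and phagocyte biology, chosen after their values were seen. Capitals mark exact matches, on either strand, to GAGGAAGT (a PU.1 motif) or to GAAA, any 2 bases, and GAAA again (ISRE). Each sequence reads 5′ to 3′ on the strand of its gene.
Tnip3 (chr6:65590148-65590397, plus strand): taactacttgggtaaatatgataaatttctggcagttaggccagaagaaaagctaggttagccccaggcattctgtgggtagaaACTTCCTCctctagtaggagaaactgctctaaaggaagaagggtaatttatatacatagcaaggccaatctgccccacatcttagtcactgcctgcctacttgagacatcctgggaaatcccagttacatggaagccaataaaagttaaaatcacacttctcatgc
Tbxas1 (chr6:38918736-38918985, plus strand): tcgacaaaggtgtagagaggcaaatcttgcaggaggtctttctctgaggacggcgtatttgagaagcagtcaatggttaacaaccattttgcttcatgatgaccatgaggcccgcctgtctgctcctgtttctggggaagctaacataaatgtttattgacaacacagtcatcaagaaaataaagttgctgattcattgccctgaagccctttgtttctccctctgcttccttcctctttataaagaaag
Cd96 (chr16:46120249-46120498, minus strand): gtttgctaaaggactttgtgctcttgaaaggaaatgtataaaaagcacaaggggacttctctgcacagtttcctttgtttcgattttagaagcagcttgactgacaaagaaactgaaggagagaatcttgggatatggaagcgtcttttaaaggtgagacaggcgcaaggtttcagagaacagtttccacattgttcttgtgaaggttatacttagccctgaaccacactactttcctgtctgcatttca
Ptpn21 (chr12:98737406-98737655, minus strand): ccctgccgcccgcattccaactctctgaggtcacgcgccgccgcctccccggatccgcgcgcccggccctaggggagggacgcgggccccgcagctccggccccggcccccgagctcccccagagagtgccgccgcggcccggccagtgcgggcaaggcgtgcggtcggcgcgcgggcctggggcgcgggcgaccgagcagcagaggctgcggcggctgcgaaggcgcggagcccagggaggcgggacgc
Bcl2a1d (chr9:88731851-88732100, minus strand): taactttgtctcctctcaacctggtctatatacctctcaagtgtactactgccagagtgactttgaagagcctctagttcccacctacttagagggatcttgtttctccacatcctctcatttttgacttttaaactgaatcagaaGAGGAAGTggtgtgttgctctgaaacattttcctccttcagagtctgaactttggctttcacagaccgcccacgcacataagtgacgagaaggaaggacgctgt
Il7r (chr15:9529877-9530126, minus strand): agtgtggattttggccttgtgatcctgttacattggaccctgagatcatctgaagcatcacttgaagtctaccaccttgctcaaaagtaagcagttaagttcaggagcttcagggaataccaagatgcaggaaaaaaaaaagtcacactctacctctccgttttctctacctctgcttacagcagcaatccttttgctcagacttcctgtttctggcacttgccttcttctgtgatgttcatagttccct
Cybb (chrX:9469325-9469574, minus strand): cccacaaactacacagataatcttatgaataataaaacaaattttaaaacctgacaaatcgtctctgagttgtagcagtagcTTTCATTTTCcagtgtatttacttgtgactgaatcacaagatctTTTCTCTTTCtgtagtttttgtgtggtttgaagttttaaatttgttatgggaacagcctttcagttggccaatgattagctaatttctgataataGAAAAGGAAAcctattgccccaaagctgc

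These windows shared some letters more often than promoters at large. The PU.1 motif was found in 23 of the 237 windows (9.70%), against 3.2% of all 32851 windows. The ISRE was found in 25 (10.5%), against 3.44%. At least 1 of these 2 motifs was in 44 windows (18.6%), against 6.54% of all, and only 4 windows held both. Smaller excesses were seen for NF-kappaB (GGGA, any 3 bases and TCC, 8.02% against 4.59%), MEIS factors (TGACAGNT, 8.02% against 5.02%), CEBP factors (TTGCNNAA, 15.6% against 10.8%) and RUNX factors (TGTGGTT, 7.17% against 5.27%). Over windows that overlap no region, the PU.1 motif and the ISRE stood at 3.04% and 3.74%. NF-kappaB, MEIS, CEBP and RUNX stood there at 4.05%, 5.79%, 12.6% and 6.28%. Motifs typical of broadly active promoters were less frequent than over all windows. GC-rich CCGCCC (KLF and SP factors) was in 27.4% of the windows against 35.7% of all, and CCGGAAGT (other ETS factors) in 1.27% against 3.89%. These 2 stood lower still, at 13.7% and 0.806%, over windows that overlap no region. The median window held 5 CpG dinucleotides, against 7 over all windows and 21 over windows that overlap a region called in all 4 libraries. Over windows that overlap no region the median was 3. The share with AGATAA, read by the erythroid zinc-finger factors, was 13.9% against 11.2%. The share with TGANTCA, the AP-1 motif, was 7.59% against 7.81%. GAGGAAGT also fits the wider ETS core, and a match says only that the letters are present. Of the 7 sequences shown, Tnip3 and Bcl2a1d hold the PU.1 motif. The Cybb window holds the ISRE at 3 places, and the other 4 hold neither motif.

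KO-pair regions were narrow and of modest height. Their width ran from 200 to 1389 bases with a median of 351, while regions called in all 4 libraries had a median of 618. Median fold enrichment was 5.13 in labelled Hira KO replicate 1 (range 2.56 to 26.3) and 5.15 in replicate 2 (3.09 to 21.3). The medians in the same libraries for regions called in all 4 were 12.1 and 11.7. Within each library's own list, the median KO-pair region stood at the 35.9th percentile in replicate 1 and at the 24.6th in replicate 2, so most lay in the lower part of both lists. Only 203 (3.2%) lay above the median of both lists, and 11 had a fold enrichment above 10 in both. The deposited fold enrichments are whole multiples of a library's own step (at least 99.98% within 0.01 of a step), 0.233 in replicate 1 and 0.343 in replicate 2. The median region stood 22 and 15 steps high, and the lowest value of each list 11 and 9 steps. The 2 libraries placed their summits close together, with a median gap of 34 bases and 90.5% within 100 bases. Their heights varied more independently, since the Pearson correlation of log2 fold enrichment between the libraries was 0.195 over the 6341 regions, given here as a description.

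**Figure D1:**
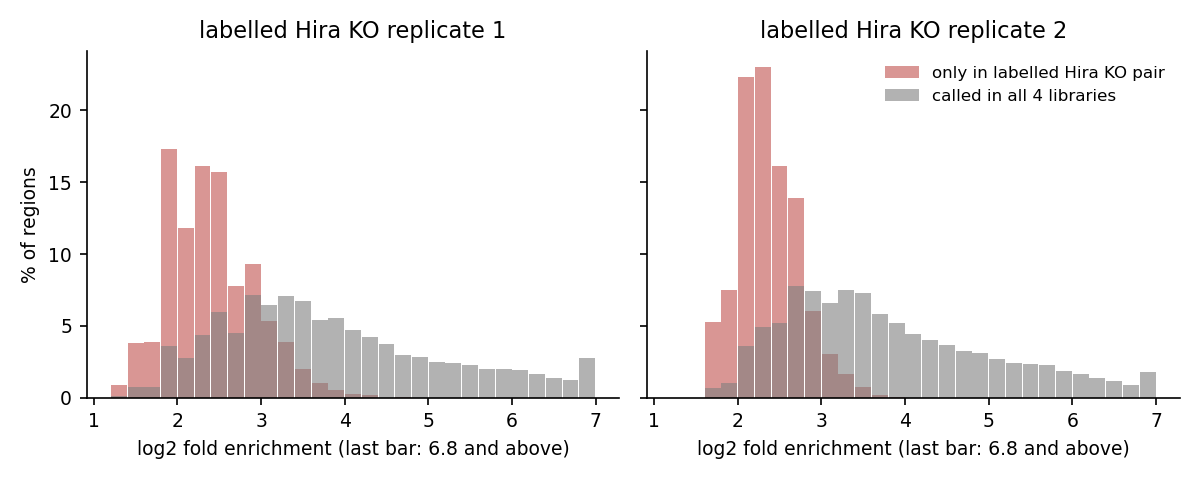
Percent of regions (vertical axis) by log2 fold enrichment (horizontal axis) in each labelled Hira KO library, for the 6341 KO-pair regions (red) and the 45779 regions called in all 4 libraries (grey). KO-pair regions pile up at the low end, with medians of 5.13 and 5.15 before the log, and overlap the lower part of the grey distribution.

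The edge of the rule was soft. Among KO-pair regions the lower of the pair's −log10 q values had a median of 5.15, and in 244 of them it was below 2. Just outside the rule were 8491 regions that both labelled Hira KO libraries and 1 labelled WT library called. Of these, 6721 were shared with labelled WT replicate 1, which has the longer list, and 1770 with replicate 2. Their labelled WT intervals had a median −log10 q of 6.99 and a median fold enrichment of 4.43, and 96 had a −log10 q below 2. The number of KO-pair regions fell to 3818 when every list was cut to the length of the shortest, 63422 intervals. It was 13221 without labelled WT replicate 1 and 8123 without replicate 2. Requiring only 1 labelled Hira KO library gave 10728 regions without replicate 1 and 25745 without replicate 2. The opposite pattern, called in both labelled WT libraries only, held 3118 regions (2.77%).

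The regions were mostly distal. The median distance from a region's centre to the nearest RefSeq start was 19.4 kb, against 12.1 kb for regions of the labelled WT pair and 10.2 kb for regions called in all 4 libraries. Start sites were at hand for every chromosome but 18, which leaves 6137 of the 6341 regions. Of those, 347 (5.65%) lay within 1 kb of a start, against 23.1% of regions called in all 4. A promoter window was overlapped by 214 (3.49%), against 21.5% and, for the labelled WT pair, 1.25%. Gene bodies held 66.3% of the regions, and 84.9% lay in or within 10 kb of a gene body, against 88.8% of all merged regions. The median gap to the nearest labelled WT interval was 5.38 kb, and 501 regions had one within 500 bases.

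**Figure D2:**
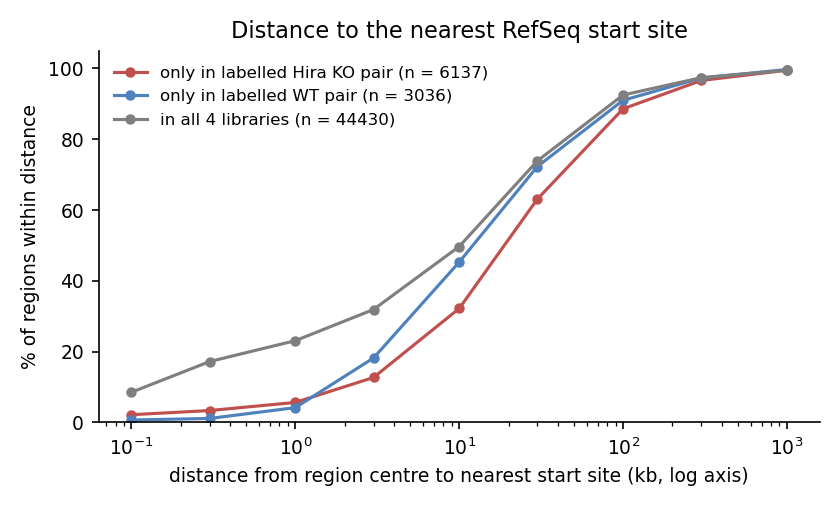
Cumulative percent of regions (vertical axis) within a given distance of the nearest RefSeq start (horizontal log axis, kb), for KO-pair regions (red), labelled WT pair regions (blue) and regions called in all 4 libraries (grey). Within 10 kb of a start lie 32.2% of KO-pair regions, 45.3% of labelled WT pair regions and 49.7% of regions called in all 4.

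The strongest regions, ranked by the lower of their percentiles in both lists, had few traits in common. The first of these lay on chr13:28502084-28502557, inside the non-coding transcript 2610307P16Rik, with fold enrichments of 17.9 and 14.1. The next lay on chr8:121792069-121792560, 0.986 kb from Jph3 (a junctional membrane protein), with 18.6 and 13. A region on chr2:129662435-129662957 had the highest value in replicate 2, 21.3, and 10 in replicate 1, and lay 23.6 kb from the nearest protein-coding gene, Pdyn. Among the 10 strongest, 4 were inside a protein-coding gene, namely Npc1 (cholesterol export from lysosomes), Kif5a (a kinesin motor), Gzf1 and Ston2. The widest regions included 1389 bases on chr10:99228126-99229514, 30.1 kb from Poc1b. Another 1205 bases lay at Fos (chr12:85475713-85476917), the gene of an AP-1 subunit, at only 3.96 and 3.09. A region of 1195 bases on chr17:52162244-52163438 lay 329 kb from Satb1, a lymphoid chromatin organiser, in the non-coding Gm19585. Its fold enrichments were 26.1 and 10.3.

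KO-pair regions also came in runs. Of the 6341, 1266 (20%) lay within 10 kb of another, and 16 runs held at least 4. The longest run was 6 regions over 24.6 kb at Chsy1, a chondroitin synthase. Irak2, a kinase that relays Toll-like and interleukin-1 receptor signals, held 5 regions over 18.9 kb. Runs of 4 lay at Cybb (the catalytic subunit of the phagocyte oxidase), at Pstpip1 (a cytoskeletal adaptor of leukocytes), and at Gimap1 and Gimap5 (GTPases of lymphocyte survival). The genes with the most regions in or within 10 kb of the body were long ones. Foxp1, a transcription factor of B cell development, had 14 among 98 regions over 597 kb. Etv6, an ETS repressor needed for bone marrow HSC, had 10 among 85. RNA did not pass the test at either, with a log2 fold change of 0.35 (SE 0.14, edgeR adjusted p 0.208) at Foxp1 and 0.52 (SE 0.14, edgeR adjusted p 0.0953) at Etv6. None of the other tested genes among the 12 with most regions, such as Irak2 (0.74, SE 0.36, edgeR adjusted p 0.267), passed either.

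Sorted by what nearby genes do, KO-pair regions made up the highest shares near granulocyte and monocyte genes and near dendritic cell and MHC class II genes. The lowest shares were near erythroid genes, endothelial and stromal genes, and genes of G2 and mitosis. The share is of all regions within 10 kb of a list's genes, and for regions near any gene it was 5.39% (2.85% for the labelled WT pair). Granulocyte and monocyte genes had 18 KO-pair regions among 156 (11.5%), with at least 1 at 13 of 28 genes. Dendritic cell and MHC class II genes had 16 among 162 (9.88%), at 9 of 16 genes. Of these regions, 5 were at Runx2, 3 at Zbtb46 and 2 at Tcf4. Of the list's MHC class II genes only Cd74 had a region, and it had 1. Lymphoid priming genes had 25 among 290 (8.62%), at 16 of 24 genes. At the other end, no KO-pair region was among the 212 regions near 24 erythroid genes, while 32 (15.1%) of those belonged to the labelled WT pair. Genes of G2 and mitosis had 2 among 202 (0.99%), with 25 of the labelled WT pair, and S phase genes 4 among 231 (1.73%), with 22. HSC genes had 14 among 462 (3.03%) and 24 of the labelled WT pair. Interferon-stimulated genes stood at 3.98% and immediate-early genes at 5.05%, below or near the share for all genes. Among the remaining lists, mast cell and basophil genes had 5 among 56 (8.93%), B and plasma cell genes 9 among 114 (7.89%) and T and NK cell genes 9 among 142 (6.34%). Megakaryocyte genes stood at 3.87%, Hox genes and cofactors at 3.53%, genes of the HIRA complex and its histone at 2.52%, and endothelial and stromal genes at 0.943%. Lists share some genes, Flt3 for one, and these shares carry no test.

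**Figure D3:**
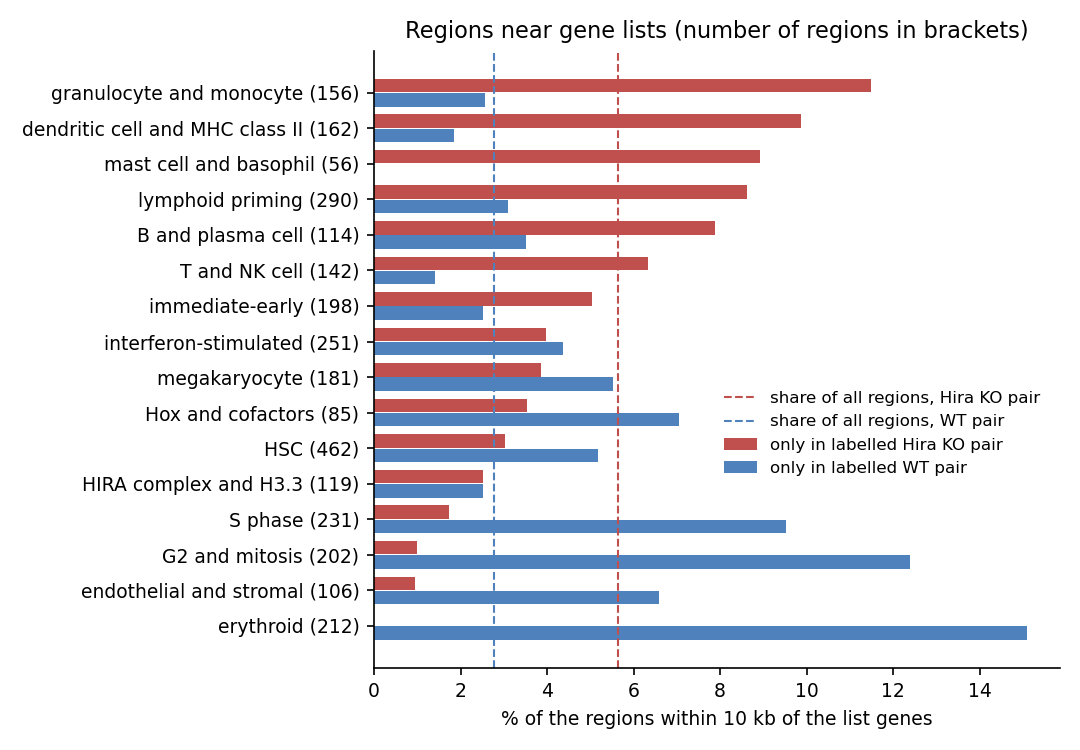
Percent of the regions in or within 10 kb of each list's genes (horizontal axis) that are KO-pair regions (red bars) or labelled WT pair regions (blue bars), with the shares of all merged regions as dashed lines (5.64% and 2.77%). Granulocyte and monocyte genes have the longest red bar, 11.5%, and erythroid genes have no red bar and a blue bar of 15.1%.

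The RNA level of these lists moved too, and its part in the shares was not tested. The summed level of the 24 erythroid genes in the files was 1070 and 1380 CPM in labelled WT and 747 and 316 CPM in labelled Hira KO. That of the 28 granulocyte and monocyte genes was 4830 and 3220 against 2180 and 1380 CPM, lower in labelled Hira KO although KO-pair regions were frequent there. Mpo alone, named after its values were seen, made up 3060 and 1940 against 1100 and 463 CPM of these sums. It did not pass the test (edgeR adjusted p 0.125). The 24 lymphoid priming genes summed to 2480 and 2360 against 5540 and 4030 CPM, and most of that difference was Ighm, without which the sums were 2050 and 1950 against 2510 and 2480 CPM. No gene of these 3 lists was at 0 in all 4 libraries. In bulk samples fewer cells of a type and less RNA per cell cannot be told apart, and the same holds for open chromatin.

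Among granulocyte and monocyte genes the regions covered both regulators and effectors. Cebpa, the factor that starts the granulocyte programme, had regions at chr7:35124783-35125135 and chr7:35127004-35127456, after its start, with fold enrichments of 7.93 and 5.15 at the first and 2.80 and 5.49 at the second. Its RNA was low, at 6.93 and 2.63 CPM in labelled WT and 6.58 and 6.79 CPM in labelled Hira KO. Cybb, a phagocyte gene, is not in this list and does not enter its counts or medians. It had 4 regions, from its start to 8.63 kb into the gene, with fold enrichments from 3.43 to 9.09. Cybb RNA was 31.6 and 23.8 CPM in labelled WT and 16.8 and 12.3 CPM in labelled Hira KO, lower in both of the latter (log2 fold change −0.93, SE 0.25, edgeR adjusted p 0.0913, which does not pass). Itgam, the alpha chain of the integrin Mac-1, had 3, the first across its promoter window. Its RNA was 18.3 and 17.3 CPM against 30.3 and 58.1 CPM, higher in both labelled Hira KO libraries (1.31, SE 0.31, edgeR adjusted p 0.0787). Csf3r, the G-CSF receptor, had 1 region, 6.24 kb after its start, with fold enrichments of 5.36 and 5.49. Csf3r RNA was 63.7 and 62.0 CPM against 111 and 148 CPM, without overlap, and rose by a log2 fold change of 1.04 (SE 0.18, edgeR adjusted p 0.0427). Other list genes with a KO-pair region, some named after their values were seen, went both ways without passing. Log2 fold changes were −1.68 at Mpo, −1.16 at Ltf, −0.81 at Ly86, −0.42 at Lyz2 and −0.19 at Fcgr3. At Csf1r and Ccr2 they were 0.55 and 0.23. Of the 13 genes of this list with a KO-pair region, Csf3r alone passed upward and none passed downward, with a median log2 fold change of −0.18. Over all 26 tested genes of the list 1 passed upward and 2 downward, and the median was −0.78.

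In the lymphoid priming list, regions lay at receptors, at recombination genes and at transcription factors. Dntt, the polymerase that adds bases at antigen receptor joints, had 3 of its 5 nearby regions in the KO-pair set, with fold enrichments from 3.03 to 7.46. Dntt RNA was 135 and 109 CPM in labelled WT and 188 and 177 CPM in labelled Hira KO (0.58, SE 0.16, edgeR adjusted p 0.0946). The groups did not overlap, and the test was not passed. Il7r, the interleukin-7 receptor alpha chain, had 2 of its 3 nearby regions in the set. One overlapped its promoter window at 9.32 and 5.83. Its RNA overlapped between the groups, at 26.7 and 29.6 against 31.9 and 16.9 CPM. Mef2c, a factor of lymphoid commitment, had 1 region in the gene body, 28.3 kb after the start, at 5.13 and 6.86. Mef2c RNA was 240 and 202 against 445 and 540 CPM, and rose by 1.16 on the log2 scale (SE 0.17, edgeR adjusted p 0.0337). Flt3, the cytokine receptor of lymphoid-primed progenitors and dendritic cell precursors, had 1 region 46.1 kb after its start, at 3.73 and 7.21. Flt3 RNA was 77.3 and 89.7 against 180 and 267 CPM, and rose by 1.42 (SE 0.21, edgeR adjusted p 0.0347). Cd27, a co-stimulatory receptor that marks multipotent progenitors, had 1 region outside the gene, with fold enrichments of 19.6 and 3.77 that differ widely between the pair. Cd27 RNA was 97.1 and 95.1 against 179 and 174 CPM, and rose by 0.88 (SE 0.14, edgeR adjusted p 0.0363). Ighm, the mu heavy chain, also rose, from 429 and 410 to 3030 and 1550 CPM (2.45, SE 0.33, edgeR adjusted p 0.0337), with 1 region outside the gene at 4.66 and 3.77. Of the 16 genes with a KO-pair region these 4 passed upward and none downward, with a median of 0.11. Among all 24 tested genes of the list the median was −0.02, with the same 4 calls.

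HSC genes had few KO-pair regions, and 3 of the 10 that had 1 or more passed upward. Angpt1, a ligand of the receptor Tie2, had 2 regions in its body, at 7.93 and 5.15 and at 3.96 and 4.12. Angpt1 RNA was 80.6 and 85.0 CPM against 247 and 290 CPM, far from overlapping (1.70, SE 0.15, edgeR adjusted p 0.0108). Meis1, a homeodomain cofactor of HSC maintenance, had 3 regions 22.0 to 70.0 kb after its start, with fold enrichments from 3.43 to 5.15. Meis1 RNA was 70.0 and 78.8 against 205 and 240 CPM (1.58, SE 0.16, edgeR adjusted p 0.0167). Ptpn21, a cytosolic phosphatase, had 1 region across its promoter. Its RNA was 5.24 and 6.67 against 16.8 and 18.6 CPM (1.57, SE 0.26, edgeR adjusted p 0.0394). Over all 38 HSC genes 8 passed upward and none downward, with a median log2 fold change of 0.83. The list was therefore higher in labelled Hira KO at its median while its share of KO-pair regions was under that of all regions. Summed HSC RNA was 1550 and 1620 CPM in labelled WT and 2840 and 3700 CPM in labelled Hira KO.

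Over all genes, RNA near KO-pair regions was called higher more often than lower. Of 16258 genes tested with edgeR's quasi-likelihood test, 214 (1.32%) were higher and 78 (0.48%) lower in labelled Hira KO at a Benjamini-Hochberg adjusted p below 0.05. KO-pair regions lay in or within 10 kb of 6049 genes (17.0% of protein-coding genes), of which 3205 could be tested. Among these, 72 (2.25%) passed upward and 10 (0.312%) downward, with a median log2 fold change of 0.10. Over all 14274 positioned genes the median was −0.02, and over 10505 genes with some open region but no KO-pair region it was −0.07, with 111 called higher and 64 lower. Genes near a labelled WT pair region had a median of −0.09, with 19 called higher and 20 lower among 2439. The median was higher where there were more KO-pair regions, from 0.06 at 2289 genes with 1, to 0.15 with 2, 0.27 with 3 and 0.30 at 135 genes with 4 or more. Genes with more KO-pair regions also had more regions in all, a median of 8 with 1 and 24 with 4 or more. Within genes that had 5 to 9 regions nearby, the median was 0.05 with a KO-pair region and −0.09 without, and within 10 to 19 it was 0.09 and −0.10. These medians are descriptions, since neighbouring genes and those that share a region are not independent. The lower share of downward calls near KO-pair regions did not hold with DESeq2, at 2.29% against 1.71% of all genes tested, nor with no filter on low counts, at 4.56% against 3.42%. The number of calls changed greatly when a library was left out, where the lone library is assumed to vary like the other group. The median near KO-pair regions stayed between 0.055 and 0.134. Without labelled WT replicate 1 no gene near a KO-pair region passed in either direction, and without replicate 2 none passed upward and 1 downward (Hmga1b, named after its value was seen). Leaving out either labelled Hira KO library raised the number of calls in both directions, near KO-pair regions and over all genes alike. Without labelled Hira KO replicate 1 the median near KO-pair regions was 0.086, and over positioned genes −0.052. Without replicate 2 these medians were 0.055 and −0.036. The 41 called genes followed one by one kept their sign in every alternative that tested them, and none of them passed when either labelled WT library was left out.

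**Figure D4:**
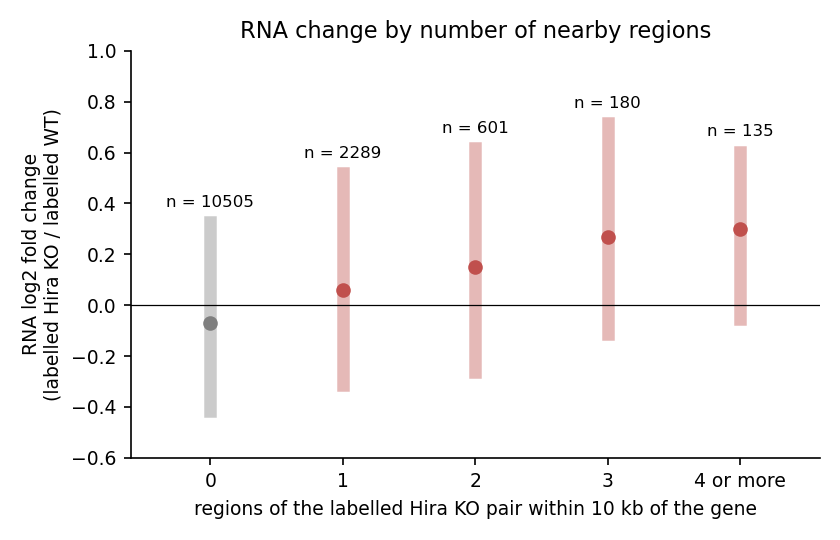
RNA log2 fold change, labelled Hira KO over labelled WT (vertical axis), of tested genes grouped by their number of KO-pair regions in or within 10 kb (horizontal axis); dots are medians, bars span the quartiles, and the grey group has open regions but no KO-pair region. Medians run from −0.07 with none to 0.30 with 4 or more, and the quartile bars of all 5 groups overlap.

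The 7 genes that had 4 or more KO-pair regions and passed the test all rose. They were 7 of 135 (5.19%), while of all positioned genes 1.35% passed upward and 0.546% downward. Among genes with 20 or more regions nearby, 18 of 448 (4.02%) passed upward with a KO-pair region and 3 of 195 (1.54%) without. Of genes with 4 or more KO-pair regions, DESeq2 called 18 higher and 2 lower, and edgeR with no filter on low counts 25 and 3. Over all positioned genes, DESeq2 called 2.71% higher and 2.06% lower, and edgeR with no filter 4.22% and 4.09%. Of the 7, Tnip3, an inhibitor of NF-kappaB signalling that binds A20, showed the largest change. Its RNA was 2.28 and 3.83 CPM in labelled WT and 14.7 and 27.4 CPM in labelled Hira KO, low in the former and without overlap (2.78, SE 0.41, edgeR adjusted p 0.0347). Of 9 regions in or within 10 kb of the gene, 5 were KO-pair regions. The first (chr6:65590144-65590448) covered the whole promoter sequence shown above, at 7.23 and 6.18, and the others lay 6.34, 9.82, 21.6 and 24.0 kb after the start, with fold enrichments from 4.66 to 5.83. Neither labelled WT library had an interval at the Tnip3 start, though both had one about 4 kb into the gene, at 6.54 and 10.2, where the labelled Hira KO libraries stood at 17.0 and 20.2. An interval about 7 kb before the start, also in all 4 libraries, ran the other way, at 38.1 and 28.6 in the labelled WT libraries and 17.5 and 21.3 in the other pair. Tbxas1, thromboxane synthase, also had 5, among 29 regions. The first met the promoter sequence only through the interval of labelled Hira KO replicate 1, at 4.66. Its replicate 2 interval, at 3.43, began 5 bases after the start, and the last region lay 148 kb after the start. Tbxas1 RNA was 24.7 and 20.6 against 63.8 and 81 CPM, without overlap (1.68, SE 0.20, edgeR adjusted p 0.0192). Both labelled WT libraries had strong intervals on either side of the Tbxas1 promoter region, at 81.2 and 57.4 before it and at 49.6 and 34.1 after it, and the labelled Hira KO libraries had intervals at both places too.

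**Figure D5:**
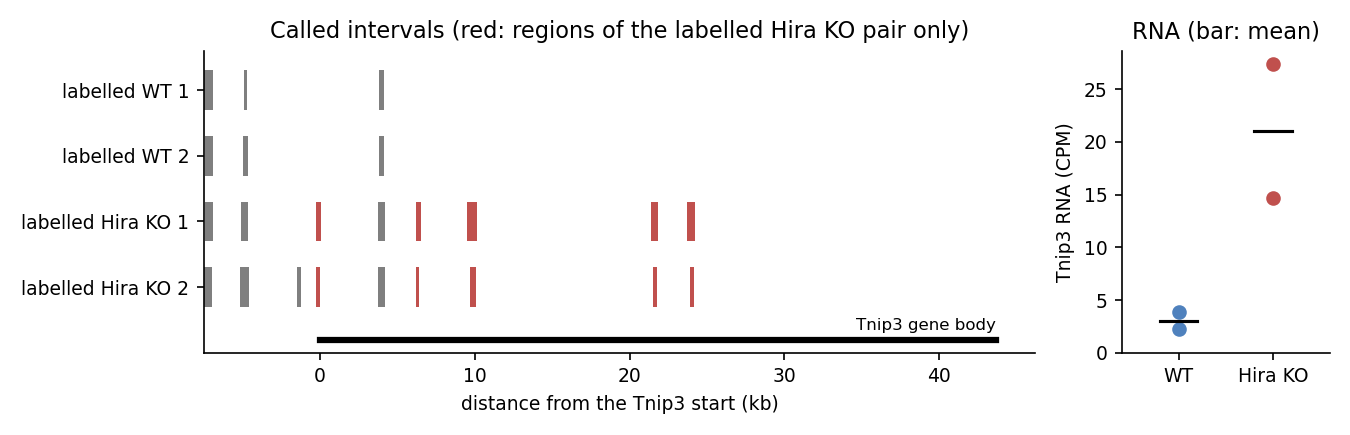
Left, intervals called in each library against distance from the Tnip3 start (horizontal axis, kb), red for KO-pair regions and grey for the rest, with the gene body in black; right, Tnip3 RNA in CPM per library with group means as bars. The 5 red regions appear in both labelled Hira KO libraries, and the RNA points are 2.28 and 3.83 CPM in labelled WT and 14.7 and 27.4 CPM in labelled Hira KO.

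The other 5 of these genes changed less. Prkcq, the protein kinase C isoform of T cell signalling, had 4 regions, all in its body, 16.0 to 128 kb after the start. Prkcq RNA was 16.0 and 15.8 against 35.2 and 50.7 CPM (1.43, SE 0.22, edgeR adjusted p 0.037). Runx2, a Runt factor of bone that plasmacytoid dendritic cells also use, had 5 regions 31.3 to 161 kb after the start. Runx2 RNA was 154 and 147 against 254 and 268 CPM (0.79, SE 0.14, edgeR adjusted p 0.0427). Sgms1, a sphingomyelin synthase, had 5 among 50 regions and RNA of 46.7 and 43.5 against 85.7 and 85.7 CPM (0.93, SE 0.15, edgeR adjusted p 0.0381). Phf21a, a reader of unmethylated histone H3 in a repressor complex, had 5 among 21 and RNA of 47.9 and 40.9 against 82.8 and 86.0 CPM (0.93, SE 0.16, edgeR adjusted p 0.0427). The non-coding 2610307P16Rik had 5, the strongest of all KO-pair regions among them, and rose by 1.33 on the log2 scale (edgeR adjusted p 0.0347). In the 6 genes whose levels are printed, the groups did not overlap, which choosing them by the test largely fixed in advance.

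Few KO-pair regions overlapped a promoter, and the 4 RNA calls at those were upward. Of 219 genes with a KO-pair region across a promoter window 124 could be tested, 4 (3.23%) passed upward and none downward, and the median log2 fold change was 0.29. Over all 14274 positioned genes 1.35% passed upward and 0.546% downward. The 4 genes called were Tnip3, Tbxas1, Ptpn21 and Cd96, an adhesion receptor of T and NK cells. Some alternatives also called genes lower at these promoters. DESeq2 called 10 higher and 4 lower, and edgeR with no filter on low counts 16 and 9. Both settings also called more of all positioned genes. DESeq2 called 2.71% of those higher and 2.06% lower, and edgeR with no filter 4.22% and 4.09%. How many of the promoter genes these settings tested was not counted, so their own shares are not given. Cd96 RNA was 11.1 and 11.7 against 25.7 and 24.9 CPM (1.15, SE 0.20, edgeR adjusted p 0.0427), and its region had fold enrichments of 6.06 and 5.15. The promoter regions with the highest fold enrichment did not go with a call. Lat, an adaptor of T cell receptor signalling, had 11.7 and 8.92 over its promoter while its RNA was 7.94 and 6.02 against 7.51 and 7.57 CPM, with overlap (0.11, SE 0.29, edgeR adjusted p 0.859). S100a4, a calcium-binding protein of motile cells, had 7.93 and 9.95 with RNA of 2.38 and 1.92 against 1.19 and 2.83 CPM (−0.10, SE 0.57, edgeR adjusted p 0.937). Agmo and Ccdc8, also among the highest, were higher in both labelled Hira KO libraries but did not pass. Agmo RNA was 1.53 and 0.821 against 1.86 and 4.03 CPM (1.31, SE 0.61, edgeR adjusted p 0.248). Ccdc8 RNA was 2.06 and 2.46 against 4.71 and 5.17 CPM (1.12, SE 0.38, edgeR adjusted p 0.139). Bcl2a1d, an anti-apoptotic BCL2 relative whose near-identical copies can share reads, had 12.6 and 8.24 and too few counts to be tested.

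Further genes that passed upward near 1 to 3 KO-pair regions spanned many functions. Adam22 (a cell-surface adhesion protein) went from 4.50 and 4.87 to 21.5 and 27.5 CPM, and Clic5 (an intracellular chloride channel protein) from 3.02 and 3.23 to 15 and 17.8 CPM. Gpr171 (an orphan-type receptor of blood cells) went from 38.4 and 36.5 to 106 and 132 CPM, and Bmpr2 (a BMP receptor) from 71.1 and 65.0 to 165 and 160 CPM. Their log2 fold changes were 2.39, 2.39, 1.67 and 1.25, and the groups were apart in each, as the choice by the test largely ensured. Also among the 15 with the lowest edgeR adjusted p were Zbtb20, Dst, Rab6b, Ppp1r9a, Itih5, Exoc6b, Dmxl2 and Sorbs3, with log2 fold changes from 1.18 to 2.26. Stat4, the mediator of interleukin-12 signals, had 3 regions, the first 0.465 kb after its start at 13.1 and 5.49. Stat4 RNA was 21.4 and 19.6 against 45.5 and 55.2 CPM (1.29, SE 0.18, edgeR adjusted p 0.0336).

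The 10 genes that passed downward near a KO-pair region showed that such a region did not always go with more RNA. Pkd1l3, a polycystin-family channel, fell from 24.8 and 22.8 to 4.09 and 3.61 CPM (−2.62, SE 0.24, edgeR adjusted p 0.0116). Itgb2, the beta chain of leukocyte integrins and partner of Itgam, had 2 regions, 1 in the gene body at 9.32 and 7.89. Its RNA fell from 26.6 and 29.2 to 11.3 and 10.7 CPM (−1.34, SE 0.20, edgeR adjusted p 0.0347). Asap1 (an Arf GTPase-activating protein) and Baz1a (a chromatin remodelling subunit) each had 3 regions. Asap1 RNA fell from 146 and 142 to 84.9 and 73.3 CPM, and Baz1a RNA from 150 and 153 to 92.7 and 75.4 CPM. The mitotic checkpoint kinase Bub1b fell from 69.5 and 70.5 to 38.7 and 30.1 CPM with 1 region of each pair nearby. Gas2l1, Xylt1, Gda and Rnf43 also fell, with log2 fold changes from −3.13 to −1.29. Gas2l1 and Xylt1 each had 1 KO-pair region and 2 regions of the labelled WT pair nearby. The KO-pair regions of Pkd1l3, Gda and Rnf43 lay outside the gene bodies. In each gene named here the values of the 2 groups did not overlap, which is largely a result of choosing genes by the test.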

How the data were processed

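RNA-seq and ATAC-seq of LSK cells were analysed from the deposited files, with groups and replicate numbers from the sample titles. Among the tools in the submitters' processing notes are MACS2 2.1.1, Bowtie2 2.2.9, RSEM 1.3.0 and STAR 2.5.3a, with the build GRCm38. Their order, and whether the transposase offset was shifted, are not given in the sources.

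Each ATAC-seq file is the authors' narrowPeak list for 1 library, with the authors' score, fold enrichment (a ratio), −log10 p and −log10 q per summit and the summit's offset. Summit lines of 1 interval were collapsed to the strongest. The RNA files hold the authors' expected counts and TPM per gene, per the file headers. Expected counts were rounded, and R 4.3.3 with edgeR 4.0.16 tested them (TMM, filterByExpr, robust quasi-likelihood, genotype only). The biological coefficient of variation was 27.8%. Depth of 16.6 to 19.8 M counts limits genes of low count most. The labels do not say that libraries came from separate mice, so p-values cover the spread between libraries, which may be technical in part. The labelled WT RNA pair differed widely in Xist RNA, as given above, and the part of sex in the spread was not tested. Strand is not stated, so antisense partners cannot be told apart. Same-numbered RNA libraries did not deviate together (correlation −0.0791), so no pairing was used. Both steps were tested on simulated data.

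Gene positions (without strand) and promoter windows came from RefSeq tables of GRCm38.p6, and 34184 of 49931 genes were linked to an RNA row by symbol. Alternatives were DESeq2 1.42.0 with its size factors, edgeR with those factors, other filters on low counts, limma 3.58.1 on log2(TPM + 1) and log2(TPM + 0.1), the replicate block, leaving out each library, other overlap and q rules for regions, and 2 or 50 kb in place of 10 kb.

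The regions, lists and tests were chosen with earlier results of these data known. Named were the 10 strongest and 10 widest regions, up to 15 called genes per direction within 10 kb, the 12 genes with most regions, called genes with a promoter overlap and up to 6 others by fold enrichment, and up to 4 genes per list. Dntt, Il7r, Cybb, Prkcq, Sgms1, Phf21a, 2610307P16Rik, Stat4, Bcl2a1d and Lat as printed examples were chosen after their values were seen, where those rules did not name them. A called gene that these rules name is not reported here.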

Additional observations from a re-analysis of the deposited data

How the results depend on the processing

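The number of KO-pair regions stayed within 1.5 times of 6341 when intervals counted as shared only with 50% of the shorter one overlapping (6292), when every list was held to a −log10 q of at least 5 (5030), and when no labelled WT interval could lie within 500 bases (5840). It moved to 3423 with a −log10 q of at least 5 in both labelled Hira KO libraries and to 3818 with lists of equal length. Leaving out 1 library gave 8123 to 25745. Within 2 kb and 50 kb in place of 10 kb, 71.6% and 97.4% of the regions had a gene, and 3829 and 14245 genes had a region.

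Near KO-pair regions, genes called higher and lower numbered 241 and 94 with DESeq2, 362 and 187 with no filter on low counts, 151 and 30 with a filter of 1 CPM in all 4 libraries, and 117 and 34 with the replicate block. Limma called 46 lower on log2(TPM + 1) and 45 on log2(TPM + 0.1), and the medians were 0.030 and 0.041. As shares of the genes tested near KO-pair regions and of all genes tested, the higher calls were 5.88% and 2.62% with DESeq2, and 2.78% and 2.41% with limma on log2(TPM + 1). With DESeq2 the median near KO-pair regions (0.105) was below that of all genes tested (0.133) and above that of positioned genes (0.0892), and with no filter the same held (0.101, 0.13 and 0.075). The share of lower calls near KO-pair regions also exceeded that of all genes with both of these settings (2.29% against 1.71%, and 4.56% against 3.42%) and with the replicate block (1.06% against 1.04%). Leaving out 1 library gave 0 to 514 higher, 0 to 317 lower and medians of 0.055 to 0.134. Over all genes, edgeR called 3 higher and 1 lower without labelled WT replicate 1, and 1 of each without replicate 2, with the lone library assumed to vary like the other group. Same-numbered libraries were not shown to pair, so the block is an alternative only. Of the 41 named genes called, 23 did not pass with limma on log2(TPM + 1). Of 1304 values of 119 named genes under alternatives, 1050 kept their side of the threshold, 128 lost the call, 126 gained it and 41 took the opposite sign, all without a call in either fit. Motif counts in whole intervals were not run, since no genome was used here. ATAC-seq depth is unknown, and with 2 libraries per group no region carries a test.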

Other observations

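The antigen receptor loci held KO-pair regions unevenly, as seen in a look at all 7 loci chosen after the lists. The immunoglobulin heavy chain locus had 15 among 161 regions (9.32%) and the T cell receptor beta locus 8 among 54 (14.8%), with none of the labelled WT pair at either. The kappa locus had 2 among 48, the T cell receptor alpha locus 4 among 139 with 2 of the labelled WT pair, and the gamma, delta and lambda loci had none among 18, 15 and 9. The counts carry no test.

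Of 1005 miRNA hairpins listed by RefSeq, 11 lay within 2 kb of a KO-pair region. Mir155, a miRNA of activated lymphoid and myeloid cells, had one 623 bases before it (chr16:84713087-84713517) with fold enrichments of 9.32 and 5.83. Its main mature product is shown with the seed, bases 2 to 8, in capitals.
mmu-miR-155-5p: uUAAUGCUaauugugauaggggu
Mir34a, a target of p53, had a region 1316 bases away at 3.26 and 4.80, and Mir210, induced by low oxygen, had one 1822 bases away at 3.26 and 6.52.

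KO-pair regions were spread over the chromosomes, from 4.47% of regions on X to 6.75% on chromosome 15, with none among the 110 regions on Y. The immediate-early gene Fos, which holds the wide region described above, had RNA of 37.1 and 24.3 CPM in labelled WT and 218 and 1110 CPM in labelled Hira KO (log2 fold change 4.43, SE 1.09, edgeR adjusted p 0.163). Summed immediate-early RNA was 822 and 638 against 1850 and 7240 CPM, so the labelled Hira KO replicates themselves differed several-fold, and its part in other results was not tested.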
